A study of Mus musculus with 6 samples.

Results

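The DCIR and Dectin group of C-type lectin receptors was examined as 10 genes (Clec4a1, Clec4a2, Clec4a3, Clec4a4, Clec4b1, Clec4d, Clec4e, Clec4n, Clec7a and Clec10a), taken by Entrez identifier from the 27179 genes of a count table. The table held RNA-seq read counts of CD8-negative dendritic cells sorted from the spleens of C57BL/6 mice. There were 3 libraries of untreated cells and 3 of CpG-pretreated cells, numbered 2, 3 and 4 in each group. CpG DNA activates cells through Toll-like receptor 9. The title of the series calls the dendritic cells paralysed, following systemic inflammation, so the question is how these receptor genes differ in cells exposed to CpG beforehand. The sources used here do not give the CpG sequence, dose, route or interval, the age and sex of the mice, or whether mice were pooled. The series design calls the libraries biological replicates, and p-values below measure only the spread between them. Total counts were 7855500 to 8228140 per library, and the 10 genes together held 3725 to 5750 of them.

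These receptors are transmembrane proteins of myeloid cells with a carbohydrate-binding type of extracellular domain. Clec4a2 and Clec4a4 encode DCIR1 and DCIR2, inhibitory receptors that recruit the phosphatases SHP-1 and SHP-2. DCIR2 is the antigen seen by the antibody 33D1, long used to mark CD8-negative dendritic cells of mouse spleen. The activating receptors Dectin-2 (Clec4n), Mincle (Clec4e), MCL (Clec4d) and DCAR (Clec4b1) depend on the Fc receptor gamma chain, whereas Dectin-1 (Clec7a) carries its own signalling motif. Activating members signal through the kinase Syk and the adaptor Card9 to NF-kappaB, and several recognise fungal and mycobacterial glycans. Clec10a encodes MGL1, a receptor for galactose and N-acetylgalactosamine.

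Members of the group resemble one another in sequence, and the sources used here do not say how reads matching several genes were counted. In the transcript with the longest coding sequence of each gene (GENCODE M21), 15% of the 50-base windows of Clec4a2 also occurred in transcripts of Clec4a4 or Clec4b1. The share was 15.7% for Clec4a4, 9.73% for Clec4b1, 10.6% for Clec10a (all shared with Mgl2, its neighbour and close copy) and 0.932% for Clec4n (shared with Gm44147). No window was shared in Clec4a1, Clec4a3, Clec4d, Clec4e or Clec7a. The sources used here give no read length, so 50 bases is a working choice. No exon of the 10 genes overlapped an exon of another gene on either strand. Clec4a2 and Clec4a4 were identical over 163 coding bases (bases 75 to 237 of each coding sequence) and at 86.7% of aligned coding bases. Clec10a and Mgl2 were identical over 183 bases and at 91.0%. The stretches across the ends of these runs are shown because they mark where a read can begin to tell the copies apart. They are coding bases 178 to 297 of Clec4a2 and Clec4a4, 625 to 744 of Clec10a and 673 to 792 of Mgl2, 5′ to 3′, with bases that differ within a pair in capitals.
Clec4a2: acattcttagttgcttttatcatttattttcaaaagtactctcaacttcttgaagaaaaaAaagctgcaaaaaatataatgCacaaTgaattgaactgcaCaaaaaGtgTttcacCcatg
Clec4a4: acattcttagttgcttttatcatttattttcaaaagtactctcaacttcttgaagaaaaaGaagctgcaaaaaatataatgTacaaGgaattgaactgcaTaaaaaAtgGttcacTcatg
Clec10a: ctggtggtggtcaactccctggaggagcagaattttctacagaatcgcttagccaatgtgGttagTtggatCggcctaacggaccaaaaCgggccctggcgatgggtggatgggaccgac
Mgl2: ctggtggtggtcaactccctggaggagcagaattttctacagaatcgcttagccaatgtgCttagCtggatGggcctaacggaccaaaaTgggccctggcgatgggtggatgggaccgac
Within these 120 bases the first pair differed at 7 positions and the second at 4.

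Levels were compared between genes as RPKM, that is, CPM (counts scaled to library size) divided by the deposited gene length in kb. Clec4a1, encoding DCIR4, stood at 156, 130 and 126 RPKM in untreated libraries 2, 3 and 4 and at 133, 111 and 136 RPKM in CpG-pretreated libraries 2, 3 and 4. Clec4a4 stood at 147, 129 and 130 RPKM in untreated and at 122, 92.8 and 143 RPKM in CpG-pretreated libraries. These are the top levels of the group, above those of 96.4% and 96.2% of the 11602 genes tested, and their ranges overlapped. Clec7a (33.3 to 56.2 RPKM) and Clec4a3, encoding DCIR3 (36.6 to 52.2 RPKM), came next, also with overlapping ranges. Clec4a2 followed at 17.4 to 28.3 RPKM, below every value of both. Clec4n (6.68 to 16.4 RPKM) and Clec4b1 (5.66 to 12.7 RPKM) could not be ordered, and Clec10a, at 3.50 to 7.44 RPKM, overlapped both. The order depends on the length used for a gene. With the length of the single GENCODE transcript, an alternative chosen after the data were seen, Clec4a4 averaged 179 against 127 RPKM, Clec4a2 48.7 against 23.5 RPKM and Clec10a 3.53 against 5.48 RPKM. The other 7 genes moved by less than their spread over libraries, so that Clec4a4 then came above Clec4a1 (132 RPKM) and Clec4a2 level with Clec4a3 (46.3 RPKM).

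**Figure D1:**
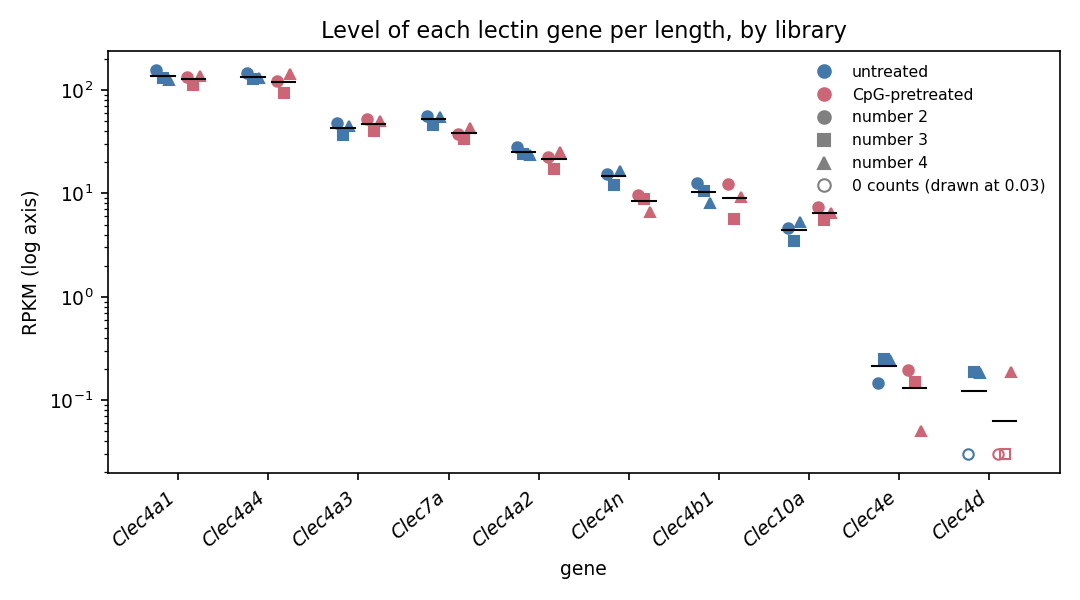
Level of each of the 10 genes in RPKM (log axis) in each library, ordered by mean; blue marks untreated and red CpG-pretreated libraries, shapes give the replicate number bars the group means and open symbols 0 counts. Clec4a1 and Clec4a4 lie near 130 RPKM, while Clec4e and Clec4d lie below 0.3 RPKM.

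All members except Clec10a lie on chromosome 6 (RefSeq positions on GRCm38, the assembly that mm10 names). In order they are Clec4a1 (Entrez 269799; 122921848 to 122934619), Clec4a3 (73149; 122952515 to 122969878), Clec4a4 (474145; 122990367 to 123024421), Clec4b1 (69810; 123049962 to 123071555), Clec4a2 (26888; 123122690 to 123143999), Clec4n (56620; 123229843 to 123247024), Clec4d (17474; 123262107 to 123275268), Clec4e (56619; 123281789 to 123289871) and Clec7a (56644; 129461591 to 129472785). Clec10a (17312) lies on chromosome 11 at 70166623 to 70170836. From Clec4a1 to Clec4e the cluster spans 368 kb. Levels were high at its Clec4a1 end and near 0 at its Clec4d and Clec4e end. The DCAR-related gene Clec4b2, which lies between Clec4a2 and Clec4n, averaged 0.0791 RPKM.

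**Figure D2:**
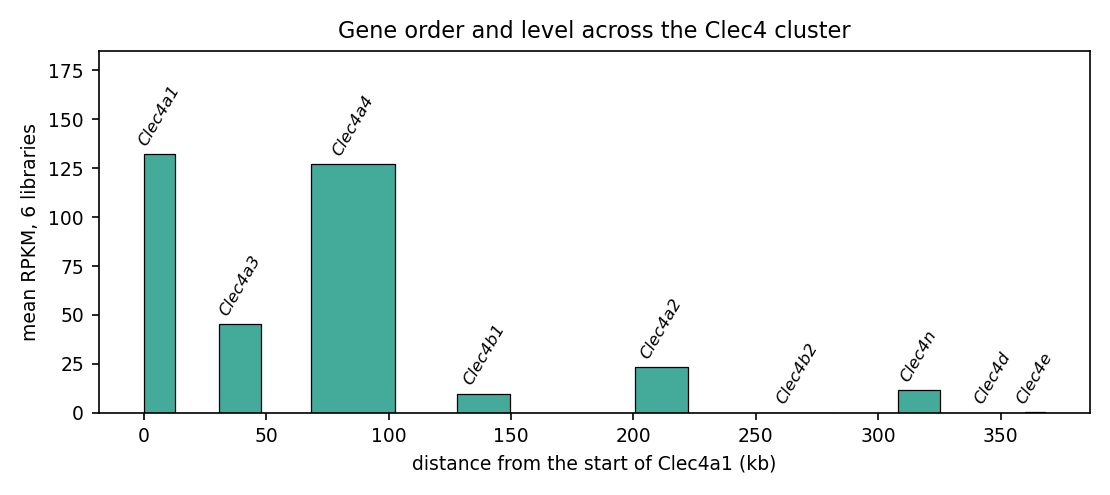
Mean RPKM over the 6 libraries (bar height, linear axis from 0) of the genes of the Clec4 cluster, drawn over the extent of each gene in kb from the start of Clec4a1. Clec4a1 and Clec4a4 reach 132 and 127 RPKM, and Clec4b2, Clec4d and Clec4e are too low for a visible bar.

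Mincle and MCL transcripts were at the limit of detection in both groups. Clec4e had 3, 5 and 5 counts in untreated and 4, 3 and 1 in CpG-pretreated libraries 2, 3 and 4. Clec4d had 0, 2 and 2 counts in untreated and 0, 0 and 2 in CpG-pretreated libraries. A count of 0 allows up to 3 counts, or 0.368 to 0.380 CPM at these depths, for counting error only. Neither gene passed the filter on low counts, and no difference was detectable at this depth. The other 8 members were tested.

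After CpG pretreatment none of the 8 tested members passed the test on unpaired libraries, and Clec4n and Clec7a, encoding the fungal receptors Dectin-2 and Dectin-1, were lower with the replicate number as a block. By edgeR's quasi-likelihood test 0 of 8 members had an adjusted p under 0.05, where 0.974% of all genes tested did. At an unadjusted p under 0.05 there were 3, against 12.8% of all genes. DESeq2 called 1, Clec4n (adjusted p = 0.0312), and limma-voom called 0. With the block, which the pairing of the replicate numbers in these data allows, 2 of 8 were called, both lower, where 8.52% of all genes were called, 3.78% lower and 4.73% higher. In 3 of 8 members the groups were fully separated, which was so for 18.7% of all genes tested. These were Clec4n and Clec7a, lower in CpG-pretreated cells as were 9.47% of all genes, and Clec10a, higher as were 9.2%. The median log2 fold change over the 8 was -0.19, and over all genes tested -0.0054. Fewer cells of a type and less RNA per cell cannot be told apart in such bulk samples.

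**Figure D3:**
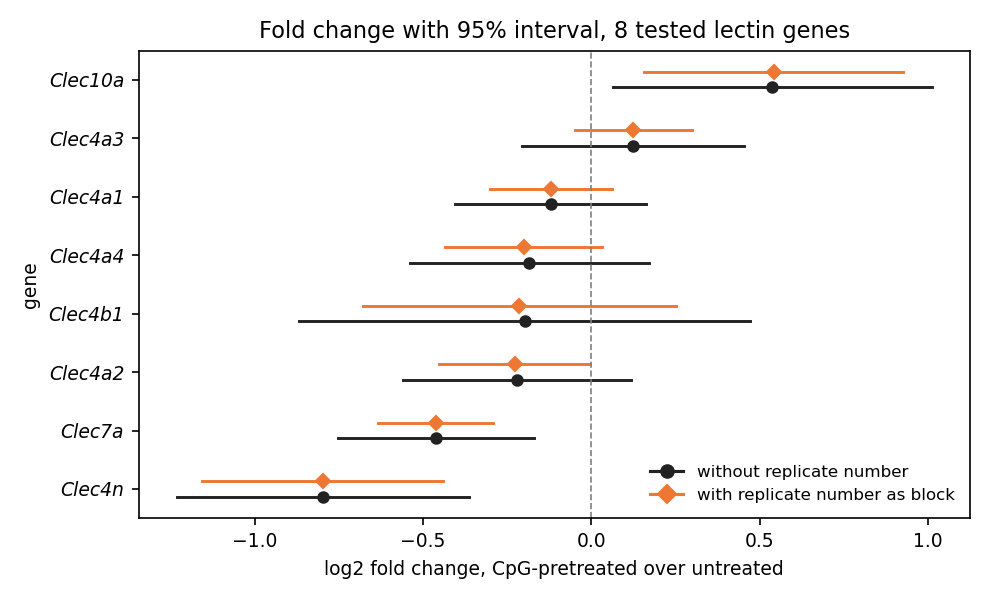
Log2 fold change of CpG-pretreated over untreated for the 8 tested genes, with 95% intervals from edgeR without the replicate number (black circles) and with it as a block (orange diamonds). Clec4n and Clec7a lie lowest, with both intervals below 0, and Clec10a highest, with both above 0.

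Clec4n, the Dectin-2 gene, was at 19.3, 14.9 and 20.4 CPM in untreated libraries 2, 3 and 4 and at 12.1, 10.9 and 8.31 CPM in CpG-pretreated libraries. Every CpG-pretreated library was below every untreated one. The means were 18.2 ± 2.92 and 10.5 ± 1.95 CPM (SD, n = 3 per group). The log2 fold change was -0.80 (SE 0.19, 95% interval -1.23 to -0.36, edgeR adjusted p = 0.0947). With the block it was again -0.80 (SE 0.17) and was called (adjusted p = 0.00889). The ratios within number 2, 3 and 4 were -0.66, -0.44 and -1.27 on the log2 scale. These rest on 66 to 166 counts per library. Leaving out any 1 same-numbered pair from the fit with the block kept the call (adjusted p = 0.0131 to 0.0463), a check added after the data were seen. Those fits hold fewer libraries, and without pair 2, 3 and 4 they called 513, 482 and 1594 of all genes.

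Clec7a, the Dectin-1 gene, was at 128, 105 and 125 CPM in untreated libraries 2, 3 and 4 and at 86.2, 75.8 and 97.7 CPM in CpG-pretreated libraries. The groups again did not overlap, and the means were 119 ± 12.4 and 86.6 ± 11.0 CPM. The log2 fold change was -0.46 (SE 0.13, 95% interval -0.75 to -0.17, edgeR adjusted p = 0.146). With the block it was -0.46 (SE 0.08) and was called (adjusted p = 0.00246), and the ratios within number 2, 3 and 4 were -0.57, -0.47 and -0.35. Without any 1 pair the call with the block held (adjusted p = 7.70e-05 to 0.0233). The lowest of these came from the fit without pair 4, which called 1594 of all genes, against 988 with all pairs. The depth was 598 to 1041 counts per library. Both genes belong to the 21.5% of genes tested that were lower within each of the 3 numbers. Markers of red pulp macrophages were lower along with them, summing to 566 to 732 CPM in untreated and 362 to 499 CPM in CpG-pretreated libraries. Monocyte markers summed to 1359 to 1456 CPM and 1188 to 1305 CPM, also without overlap, although 7 of the 11 tested had log2 fold changes above 0. The largest part of that sum was Nr4a1, also an immediate early gene. It was at 435 to 654 CPM in untreated and 326 to 414 CPM in CpG-pretreated libraries, so the separated sum leans on 1 gene. Of 10 markers of CD8-negative dendritic cells, the sorted type, 6 were lower without overlap, where 9.47% of all genes were. With the block 5 of the 10 were called lower, where 3.78% of all genes were, and 3 had log2 fold changes above 0. The part of red pulp macrophages, monocytes or changes in the sorted cells in the Clec4n and Clec7a values was not tested.

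Promoter windows (250 bases before to 50 after a start, RefSeq, GRCm38.p6) were in the table for 7 of the 10 genes. Clec7a is shown as a member called with the block and Clec4a1 as the most abundant member, which was not called. Both windows hold GAGGAA or its reverse complement TTCCTC, the core letters bound by the myeloid factor PU.1, marked in capitals. The letters were searched on both strands and occur in 28.3% of the 32851 promoter windows of the table.
Clec7a (chr6:129472736-129473035, minus strand): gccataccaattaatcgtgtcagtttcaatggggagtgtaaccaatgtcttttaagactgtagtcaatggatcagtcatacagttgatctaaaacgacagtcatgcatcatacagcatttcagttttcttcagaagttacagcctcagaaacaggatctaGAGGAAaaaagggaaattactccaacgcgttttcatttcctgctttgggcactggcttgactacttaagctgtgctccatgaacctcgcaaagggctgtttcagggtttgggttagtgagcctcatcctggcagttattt
Clec4a1 (chr6:122921598-122921897, plus strand): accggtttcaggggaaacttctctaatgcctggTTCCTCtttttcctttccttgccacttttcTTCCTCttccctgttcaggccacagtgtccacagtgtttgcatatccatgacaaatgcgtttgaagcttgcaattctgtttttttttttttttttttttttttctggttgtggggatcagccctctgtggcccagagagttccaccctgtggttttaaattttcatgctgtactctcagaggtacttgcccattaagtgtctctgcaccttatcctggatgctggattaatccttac
The core occurs 1 time in the Clec7a window and 2 times in that of Clec4a1. It also occurs in windows of Clec4b1, Clec4d and Clec4e, in 1 of 2 windows of Clec4a3 and in the other window of Clec7a, which overlaps the one shown, and not in that of Clec4a2.

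Clec10a, the MGL1 gene, was at 6.88, 5.25 and 7.99 CPM in untreated libraries 2, 3 and 4 and at 11.2, 8.37 and 9.70 CPM in CpG-pretreated libraries. All CpG-pretreated values lay above all untreated ones. The log2 fold change was 0.54 (SE 0.21, 95% interval 0.06 to 1.01, edgeR adjusted p = 0.313 without and 0.0829 with the block), so it was not called. The fit with the block and without pair 4, added after the data were seen, called 1594 genes, against 988 with all pairs. In it Clec10a was called higher, at 0.68 (adjusted p = 0.0446). Its close copy Mgl2, also a galactose-type lectin gene, had 37, 23 and 30 counts in untreated and 19, 5 and 14 in CpG-pretreated libraries. The log2 fold change of Mgl2 was -1.22 (SE 0.40, edgeR adjusted p = 0.233 without and 0.0243 with the block). It was chosen for description after its values were seen. Clec10a made up 60.2%, 64.6% and 68.4% of the counts of this gene pair in untreated libraries 2, 3 and 4, against 82.7%, 93.0% and 84.6% with CpG. The shares did not overlap (two-sided exact permutation test, p = 0.1, the smallest that 3 against 3 libraries allow, and 0.25 adjusted over 5 ratios, all chosen after the data were seen). Summed, both genes had 93, 65 and 95 counts in untreated and 110, 71 and 91 in CpG-pretreated libraries, with a log2 fold change of 0.12 (edgeR adjusted p = 0.915). As 10.6% of the windows of Clec10a also occur in Mgl2, part of the reads could belong to either gene.

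**Figure D4:**
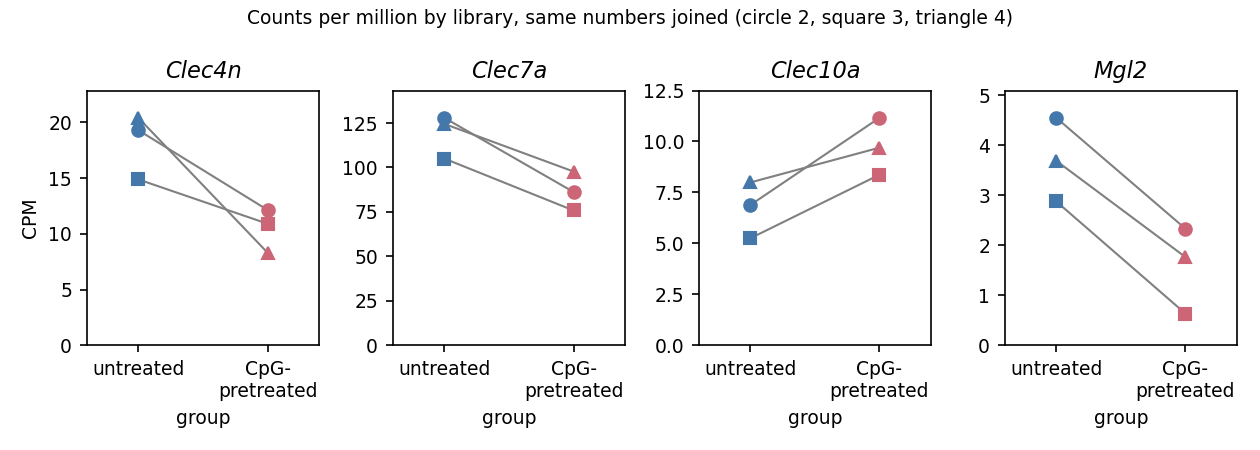
CPM (linear axes from 0) of Clec4n, Clec7a, Clec10a and Mgl2 in each library, with same-numbered libraries of both groups joined. Clec4n, Clec7a and Mgl2 are lower and Clec10a is higher in CpG-pretreated cells within every number.

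The 4 DCIR genes were the bulk of the group's transcripts and none of them was called. Together they summed to 380, 320 and 325 RPKM in untreated and 330, 261 and 353 RPKM in CpG-pretreated libraries 2, 3 and 4, with overlapping groups. By contrast, the 5 activating members summed to 84.5, 69.0 and 79.5 RPKM in untreated and 60.02, 47.9 and 59.2 RPKM in CpG-pretreated libraries, which did not overlap. Most of the activating sum was Clec7a. No test was made of these sums.

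Clec4a4, the DCIR2 gene, was at 160, 141 and 141 CPM in untreated libraries 2, 3 and 4 and at 133, 101 and 156 CPM in CpG-pretreated libraries. Its spread among CpG-pretreated libraries (SD 27.3 CPM) exceeded that among untreated ones (11.1 CPM), with library 3 lowest and library 4 inside the untreated range. The log2 fold change was -0.18 (SE 0.15, 95% interval -0.54 to 0.17, adjusted p = 0.742 without and 0.310 with the block). Clec4a2, the DCIR1 gene, was at 74.1, 62.9 and 61.2 CPM in untreated and at 59.2, 45.5 and 65.4 CPM in CpG-pretreated libraries. Its log2 fold change was -0.22 (SE 0.15, 95% interval -0.56 to 0.12, adjusted p = 0.649 without and 0.225 with the block). Both genes were thus lower within numbers 2 and 3 and higher within number 4. With the block and without pair 4, both were called lower, Clec4a2 at -0.40 (adjusted p = 0.00702) and Clec4a4 at -0.38 (adjusted p = 0.00731). That fit, added after the data were seen, left out the only number in which both were higher. It called 1594 genes, 654 of them lower, against 988 and 439 with all pairs.

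Clec4a2 and Clec4a4 moved together from library to library. Among the 8967 genes with an official symbol whose average log2 CPM was 3 or more, Clec4a2 was the nearest to Clec4a4 in log2 CPM around its own mean over the 6 libraries. The root mean square difference was 0.0436, where the median gene had 0.268. Next came Pygo2 (0.063), a Wnt pathway co-activator, and Emb (0.0739), encoding the glycoprotein embigin. The log2 ratio of Clec4a4 to Clec4a2, in RPKM, stayed between 2.37 and 2.51 in the 6 libraries. Reads of the shared 163 coding bases could have been given to either gene, and the part of this in their likeness was not tested. Summing the counts of Clec4a2, Clec4a4 and Clec4b1 gave -0.20 on the log2 scale (SE 0.15, edgeR adjusted p = 0.722).

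**Figure D5:**
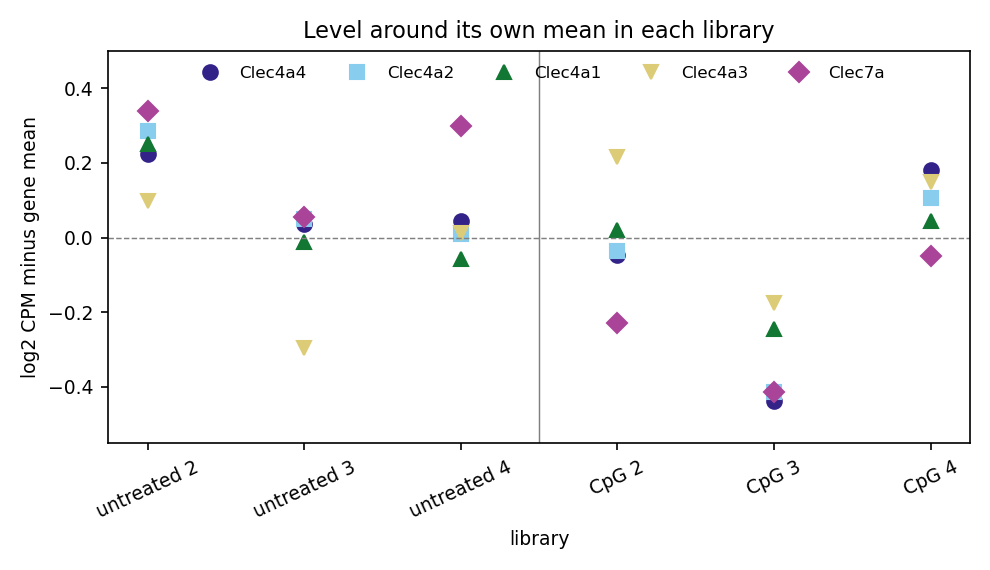
Log2 CPM minus the mean of the gene over the 6 libraries, for Clec4a4, Clec4a2, Clec4a1, Clec4a3 and Clec7a, with untreated libraries left of the line and CpG-pretreated right of it. Clec4a4 and Clec4a2 lie close together in every library, and Clec7a is above its mean in the 3 untreated and below it in the 3 CpG-pretreated libraries.

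Clec4a1 was at 244, 203 and 197 CPM in untreated libraries 2, 3 and 4 and at 208, 173 and 211 CPM in CpG-pretreated libraries. The log2 fold change was -0.12 (SE 0.12, 95% interval -0.40 to 0.16, adjusted p = 0.810). Clec4a3 was at 64.0, 48.6 and 60.2 CPM in untreated and at 69.4, 52.9 and 66.2 CPM in CpG-pretreated libraries. Its log2 fold change was 0.13 (SE 0.14, 95% interval -0.20 to 0.45, adjusted p = 0.837 without and 0.407 with the block). The ratios of Clec4a3 within number 2, 3 and 4 were 0.12, 0.12 and 0.14, alike in size, and 22.2% of the genes tested were likewise higher within each number. Library 3 was the lowest of its group for Clec4a3 in both groups. Clec4b1, the DCAR gene, rested on 35 to 81 counts per library. It was at 9.95, 8.25 and 6.27 CPM in untreated and at 9.57, 4.44 and 7.30 CPM in CpG-pretreated libraries (log2 fold change -0.20, SE 0.29, 95% interval -0.87 to 0.47, adjusted p = 0.890). That interval includes a fall as large as that of Clec4n.

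The order of Clec7a and Clec4a3 turned between the groups. The log2 ratio of their RPKM was 0.22, 0.33 and 0.27 for numbers 2, 3 and 4 of the untreated group. It was -0.46, -0.26 and -0.21 for those of the CpG-pretreated group. Dectin-1 transcripts were thus above those of DCIR3 in each untreated library and below in each CpG-pretreated one. A ratio within a library does not depend on how libraries are scaled. The two-sided exact permutation test gave p = 0.1, the smallest possible (0.25 adjusted over the 5 ratios). The ratio of Clec4n to Clec4b1 overlapped between the groups (p = 0.3, exact permutation test), as did that of Clec4a4 to Clec4a1 (p = 0.5) and that of Clec4a4 to Clec4a2 (p = 0.6). As a share of the summed RPKM of all 10 genes, Clec7a made up 11.98%, 11.8% and 13.4% in untreated and 9.53%, 10.6% and 10.3% in CpG-pretreated libraries. Clec4a3 made up 10.3%, 9.32% and 11.1% against 13.1%, 12.7% and 11.9%. Each share is relative to the other members.

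Of 33 genes that carry the signal of these receptors, the Syk and Card9 list, 0 were called by edgeR. At an unadjusted p under 0.05 there were 3 of 33, where 12.8% of all genes had such a p, and DESeq2 and limma-voom called 0. Fcer1g, the shared gamma chain, averaged 340 ± 45.1 CPM without and 327 ± 26.4 CPM with CpG pretreatment (SD, n = 3 per group; log2 fold change -0.06, edgeR adjusted p = 0.934). For Syk, the kinase, the log2 fold change was -0.16 (adjusted p = 0.787), and for the adaptor Card9 it was 0.03 (adjusted p = 0.968). Among the most abundant members were the kinase genes Pik3cd (-0.12, adjusted p = 0.786) and Fgr (0.02, adjusted p = 0.967). With the block 2 of 33 were higher, Plcg2, a phospholipase gene (0.33, adjusted p = 0.0164), and Casp8, a protease gene (0.29, adjusted p = 0.0322), and none was lower. Of all genes tested, 4.73% were called higher with the block and 3.78% lower. The list median was -0.03. The kinase gene Src, low at 1.23 to 3.32 CPM and named after its values were seen, had -1.02 with groups that did not overlap (adjusted p = 0.139 without and 0.0714 with the block).

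Of the phosphatases and adaptors of inhibitory motifs, 0 of 6 tested were called by edgeR, DESeq2 or limma-voom, and 0 had an unadjusted p under 0.05. Ptpn6, encoding SHP-1, was at 1150 ± 49.3 and 1221 ± 36.7 CPM (log2 fold change 0.09, adjusted p = 0.804). Inpp5d, encoding SHIP-1, had 0.03 (adjusted p = 0.968) and the kinase gene Csk -0.16 (adjusted p = 0.608). Of 8 NF-kappaB subunit and inhibitor genes, 0 were called by the same tools and 0 had an unadjusted p under 0.05, with Nfkb1 at 0.09 (adjusted p = 0.857), Relb at -0.14 (adjusted p = 0.651) and Nfkb2 at 0.09 (adjusted p = 0.803).

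Response genes that these receptors can induce were mostly lower in value. Of 13 tested, 11 had a log2 fold change below 0, as did 51.1% of all genes, and the list median was -0.56. By edgeR 0 were called, and 7 had an unadjusted p under 0.05, where 12.8% of all genes did. DESeq2 called 3 and limma-voom 0. With the block 5 were lower and 1 was higher, where 3.78% of all genes were lower and 4.73% higher. Il1b, the interleukin-1 beta gene, was at 250, 150 and 213 CPM in the untreated and at 134, 108 and 131 CPM in CpG-pretreated libraries (-0.72, SE 0.18, adjusted p = 0.114 without and 0.000343 with the block). Nr4a1, an immediate early nuclear receptor gene that is also in the monocyte marker list, had -0.60 (adjusted p = 0.132 without and 0.00415 with the block), and the immediate early gene Egr1 -0.75 (adjusted p = 0.250 without and 0.316 with the block). The other members called with the block, all named after their values were seen, were Egr2, Ccl3 and Ccl22, which were lower, and Il12b, which was higher (1.05, adjusted p = 0.0464). Many other receptors induce these genes as well.

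Among other C-type lectin receptor genes 15 of 20 tested had a log2 fold change below 0, as did 51.1% of all genes. At an unadjusted p under 0.05 there were 11, against 12.8% of all genes, and DESeq2 called 4 and limma-voom 1. By edgeR 1 of 20 was called lower, where 0.5% of all genes were. This was Cd209b, encoding SIGN-R1, a receptor of marginal zone macrophages. It was at 10.4, 5.75 and 11.2 CPM in untreated and at 1.10, 0.507 and 1.39 CPM in CpG-pretreated libraries (log2 fold change -3.17, SE 0.39, adjusted p = 0.0297). Its call was lost without untreated replicate 3 (adjusted p = 0.0527) or 4 (0.148) and without CpG-pretreated replicate 2 (0.131) or 3 (0.106). In that order, those fits called 2, 1, 0 and 0 of all genes. With the block Cd209b was called lower, at -3.18 (adjusted p = 8.46e-06). The most abundant gene of the list, Cd209a, a DC-SIGN relative, had -0.68 (SE 0.16, adjusted p = 0.0885 without and 0.000301 with the block). Clec2d and Cd72 had -0.23 (adjusted p = 0.675) and -0.09 (adjusted p = 0.877). With the block 6 of 20 were lower and 1 was higher, where 3.78% of all genes were lower and 4.73% higher. The higher one was the endocytic receptor gene Ly75, encoding DEC-205 (0.71, adjusted p = 0.0228). Cd209 genes are similar copies, so which copy their reads came from is uncertain.

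The labelled cell type was checked by its markers. For the counts below, edgeR called 0.5% of all genes tested lower and 0.474% higher. With the block these shares were 3.78% and 4.73%. An unadjusted p under 0.05 was found for 12.8% of all genes, and a log2 fold change below 0 for 51.1%. Itgax, encoding CD11c, stood at 1812 to 2275 CPM and Sirpa at 1197 to 1531 CPM in the 6 libraries, while Cd8a, against which the cells were sorted, stood at 1.23 to 4.69 CPM. All 13 tested markers of red pulp macrophages had log2 fold changes below 0 and 5 were called lower (11 with the block), out of 14 genes in the list. Its defining member Spic stood at 8.71 to 18.6 CPM and Vcam1 at 11.9 to 53.1 CPM, and no list member was at 0 in every library. The 10 markers of CD8-negative conventional dendritic cells summed to 4893 to 5563 CPM in untreated and 4261 to 5386 CPM in CpG-pretreated libraries, with 1 called lower, Esam (5 with the block). The 9 markers of CD8-positive ones summed to 1735 to 2855 and 2060 to 2700 CPM, a sum that is mostly Wdfy4 (2257 CPM on average). Their median log2 fold change was 0.79, with 6 above 0 and 3 below (Wdfy4 -0.05, Batf3 -0.27 and Cadm1 -0.40). Itgae (2.28), Cd24a (1.91) and Xcr1 (1.27) had the highest values. For Itgae, CpG-pretreated library 4 (0.756 CPM) nevertheless lay below the lowest untreated value (0.983 CPM). Of the 9, 0 were called by edgeR, 5 had an unadjusted p under 0.05 and 4 were higher with the block. DESeq2 called 4 and limma-voom 0. Of 11 tested monocyte markers 0 were called by edgeR, 5 had an unadjusted p under 0.05, DESeq2 called 2 and limma-voom 0. With the block Nr4a1, Treml4 and Ace were lower and Ms4a4c was higher. The 13 neutrophil markers summed to 32.9 to 109 and 80.4 to 132 CPM. Markers of plasmacytoid dendritic cells summed to 257 to 260.4 CPM in untreated and 287 to 320.3 CPM in CpG-pretreated libraries, without overlap. That sum was mostly Spib, Tcf4 and Bst2, each of which overlapped between the groups, while Siglech was at 1.11 to 2.21 CPM. Of 6 tested, 0 were called by edgeR with or without the block, DESeq2 or limma-voom, and 1 had an unadjusted p under 0.05. All 5 tested B cell markers had log2 fold changes below 0, and Cr2 was called lower with the block (-1.44, adjusted p = 0.00243). Erythroid transcripts (10 genes, with Hba-a1 at 0 throughout) summed to 42.9 to 114 CPM in untreated and 252 to 1101 CPM in CpG-pretreated libraries. Of 6 tested, 4 were called higher by edgeR, 2 with the block and 0 by limma-voom. DESeq2, fitted without that filter on low counts, called 8 genes of the list. The part of erythroid transcripts in the values above was not tested either.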

How the data were processed

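Read counts per Entrez gene ID were deposited by the authors for 6 libraries, as whole numbers and without normalization, with a gene length in bases. The submitters' processing notes name mm10, featureCounts and CASAVA, without versions. The sources used here give no aligner, strand setting or rule for reads matching several genes. Symbols and positions came from RefSeq (GRCm38.p6) by gene ID (25275 matched, 1904 unmatched with 0.327% of counts).

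The counts were tested with edgeR 4.0.16 under R 4.3.3 (filterByExpr with minimum count 10 and total 15, TMM, robust quasi-likelihood F test, two-sided). Genes tested numbered 11602, p-values were Benjamini-Hochberg adjusted over all of them, and called means an adjusted p under 0.05. CPM and RPKM use TMM library sizes. Ratios within a number use a prior count of 2. Standard errors were derived from each fold change and F statistic, and 95% intervals from its degrees of freedom. Alternatives used DESeq2 1.42.0, limma-voom (limma 3.58.1), other scalings and filters, and left out libraries. Tests were checked on data simulated without a replicate effect, which does not check the pairing. Coding sequences were aligned with Biopython 1.88. Library pairs within a group differed beyond sampling noise (chi-square per degree of freedom 3.30 to 20.8), and all 6 libraries were used.

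The labels do not say what replicate numbers 2, 3 and 4 mark. After subtracting group means, log2 CPM correlated across genes at 0.479, 0.251 and 0.312 between same-numbered libraries, each over 0.1. Between libraries of different number the correlations were -0.393 to 0.0658. These add no support, because centred values of a group sum to 0 for each gene. Same-numbered correlations above 0 thus push the others below 0 on average. A fit with samples paired by number was added because of the same-numbered correlations, from the data alone. The fit without the replicate numbers stayed the principal one, and the edgeR calls of Clec4n and Clec7a depend on the pairing. The members and lists were chosen with earlier results of these data known. The text names all 10 members and, of each pathway list, called genes, the 3 of highest mean CPM and Fcer1g, Syk, Card9 and Ptpn6. A gene that this rule names is not reported here.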

Additional observations from a re-analysis of the deposited data

How the results depend on the processing

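The number of members called moved from 0 to 2 with the replicate block and to 1 with DESeq2, and was 2, 2 and 5 with the replicate block without pair 2, 3 and 4 (added after the data were seen). It was 0 in every other setting, including each fit without 1 library. Clec4n ranged from -0.96 to -0.57, Clec7a from -0.56 to -0.37 and Clec10a from 0.39 to 0.68 on the log2 scale over 17 settings, and no scaling turned a member's sign. Of 136 member values, 122 kept direction and side of the threshold, 12 became called and 2 turned, those of Clec4b1 without CpG-pretreated replicate 3 (range over single left-out libraries -0.47 to 0.057) and with the replicate block without pair 3 (0.070).

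The count of all genes called was 113 and moved to 988 with the replicate block, 443 with DESeq2, 41 with limma-voom, 189 without a filter and 513, 482 and 1594 with the replicate block without pair 2, 3 and 4. Leaving out 1 library gave 0 to 386, a move of over 1.5 times for each of the 6 (0 without CpG-pretreated replicate 2 or 3, where edgeR's p before adjustment was under 0.05 in 1065 and 1107 genes). Called genes of the pathway and other lectin lists numbered 1, and 15 with the replicate block, 2 with upper quartile scaling, 7 with DESeq2, 3 without a filter, 11, 10 and 23 with the replicate block without pair 2, 3 and 4, and 0 to 3 without 1 library. The cause was not tested; fits without a library or pair hold fewer samples.

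Other named genes turned sign only near 0 and uncalled. Leaving out single libraries gave -0.20 to 0.017 for Cd72, -0.072 to 0.12 for Inpp5d, -0.12 to 0.072 for Fcer1g and -0.023 to 0.14 for Card9. Upper quartile scaling gave -0.0093 for Fgr and -0.0069 for Card9. With the replicate block, Fgr gave -0.0029 without pair 2 and Card9 -0.063 without pair 3. The block changed no call of a member other than Clec4n and Clec7a. Members under 100 counts in every library (Clec4b1, Clec10a, Clec4d and Clec4e) are limited by depth. Clec4n was also under 100 counts in the CpG-pretreated libraries (99, 86 and 66 counts).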
